A study of Danio rerio with 3 samples.

Results

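Cycling cells of the zebrafish retina were compared between the Lws2-ablation and Sws2-ablation libraries. The cells were selected on their own UMIs (unique molecular identifiers, which count captured RNA molecules) of mki67, top2a, cdk1, pcna, mcm5 and rrm2.1. A kept cell with at least 8 UMIs of these 6 genes in total was called cycling. This gave 1796 of 10430 kept cells in the Lws2-ablation library and 1066 of 7851 in the Sws2-ablation library, or 2862 of the 18281 kept cells of both. The no ablation control, used here as background, held 346 such cells among 8190. The question was whether proliferating cells carry the same RNAs after the loss of long wavelength (Lws2) and of short wavelength (Sws2) cones.

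All larvae carried the reporters her4.1:dRFP and gfap:GFP. Those of the Lws2-ablation library carried lws2:nfsb-mCherry as well, those of the Sws2-ablation library sws2:nfsb-mCherry, and those of the no ablation control neither. The cone opsin promoters drive nfsb, a nitroreductase that makes metronidazole toxic to the cell that carries it, while the her4.1 and gfap promoters drive fluorescent proteins in progenitors and glia. Larvae of every line, the control included, were placed in 10 mM metronidazole at 6 days post-fertilization (dpf) for 48 h, rinsed at 8 dpf and collected at 9 dpf, which is 3 days post-injury for the ablated lines. Pooled retinal cells were sorted on the gfap reporter and sequenced as 1 library a group, so no difference below has a replicate check and no test across larvae was possible. Intervals are exact 95% intervals that cover counting error only. Differences between the ablations and differences between the libraries cannot be told apart.

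In the fish retina, Müller glia span the tissue, recycle glutamate and support neurons at rest. When neurons are lost they can return to the cell cycle and give rise to progenitors, which divide under the control of Notch signalling and then switch on proneural factors as they become neurons. A cell in S phase copies its DNA with the help of pcna (the sliding clamp of the polymerases), mcm5 (a subunit of the replicative helicase) and rrm2.1 (a subunit of ribonucleotide reductase). A cell in G2 and mitosis carries cdk1 (the mitotic kinase), top2a (a topoisomerase that untangles chromosomes) and mki67 (a protein that coats them).

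The libraries held 75131968 UMIs in 10557 barcodes (Lws2-ablation), 52577782 in 7896 (Sws2-ablation) and 43017721 in 8336 (no ablation). The Lws2-ablation and Sws2-ablation libraries shared 29 barcodes, none of them cycling in both. Cycling cells had a median of 13253.5 UMIs after Lws2-ablation, 14278 after Sws2-ablation and 13178.5 without ablation. EGFP, the transcript of the gfap reporter, was seen in 843 of 1796 cycling cells of the Lws2-ablation library (46.9%, 44.6 to 49.3%), in 8 of 1066 of the Sws2-ablation library (0.750%, 0.325 to 1.47%) and in 117 of 346 of the control (33.8%, 28.8 to 39.1%). The library labelled Sws2-ablation thus almost lacked the transcript of a reporter that its line is said to carry.

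Cycling cells made up 17.2% (16.5 to 17.96%) of kept cells in the Lws2-ablation library, 13.6% (12.8 to 14.4%) in the library labelled Sws2-ablation and 4.22% (3.799 to 4.68%) in the no ablation control. The order was the same when every cell was thinned to 3000 UMIs and chosen at 5 UMIs or more, with 18.2% (17.4 to 19.1%) of the deep enough cells after Lws2-ablation, 12.4% (11.6 to 13.3%) after Sws2-ablation and 3.90% (3.43 to 4.41%) without ablation. That step left out 2654 shallower cells of Lws2-ablation, 2273 of Sws2-ablation and 1985 of no ablation. Few cells lay at the threshold itself, with 41 cells at 8 UMIs and 44 at 7 after Lws2-ablation, 40 and 51 after Sws2-ablation, and 16 and 8 without ablation. These shares describe the choice of cells.

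**Figure D1:**
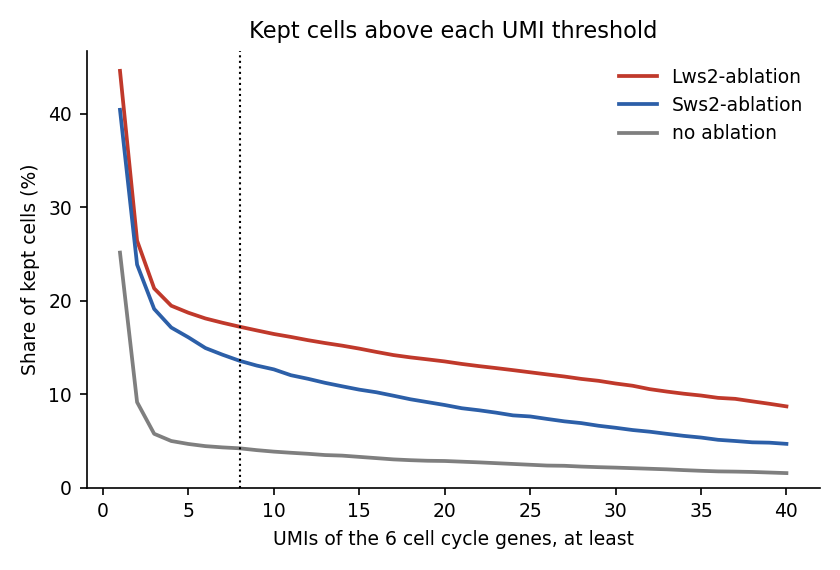
Share of kept cells (vertical axis, %) with at least the number of UMIs of the 6 cell cycle genes given on the horizontal axis, 1 line a library; the dotted line marks 8 UMIs. At 8 UMIs the lines stand at 17.2% (Lws2-ablation), 13.6% (Sws2-ablation) and 4.22% (no ablation).

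The 6 genes that chose the cells are given as levels only, in CPM (UMIs of a gene per 1000000 UMIs of the cycling cells). pcna stood at 1307 CPM after Lws2-ablation, 1102 after Sws2-ablation and 1457 without ablation, and rrm2.1 at 1231 CPM after Lws2-ablation, 828 after Sws2-ablation and 673 without ablation. mcm5 stood at 141 CPM after Lws2-ablation, 171 after Sws2-ablation and 210 without ablation. Of the mitotic genes, mki67 stood at 363 CPM after Lws2-ablation, 161 after Sws2-ablation and 268 without ablation. top2a was at 197 CPM after Lws2-ablation, 109 after Sws2-ablation and 134 without ablation, and cdk1 at 185 CPM after Lws2-ablation, 111 after Sws2-ablation and 149 without ablation. The median cycling cell held 40 UMIs of the 6 genes after Lws2-ablation, 28 after Sws2-ablation and 30 without ablation. Cells in which UMIs of mki67, top2a and cdk1 together equalled or outweighed those of pcna, mcm5 and rrm2.1 (called M-dominant here, the others S-dominant) made up 16.7% (15.01 to 18.5%) of cycling cells after Lws2-ablation, 12.3% (10.4 to 14.4%) after Sws2-ablation and 19.1% (15.07 to 23.6%) without ablation. rrm2.1 is the identifier ENSDARG00000078069, and a second gene of the symbol rrm2 (ENSDARG00000020711) held 99 UMIs in cycling cells after Lws2-ablation, 48 after Sws2-ablation and 440 without ablation, so reads may be split between the copies.

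Other cell cycle genes, which did not enter the choice, were far higher in the chosen cells. The comparison cells were chosen for few UMIs of the 6 genes, so the gap describes the choice and is no independent check. The 51 genes of a DNA replication list summed to 4633 CPM after Lws2-ablation, 4250 after Sws2-ablation and 4710 without ablation in cycling cells. They summed to 274 CPM after Lws2-ablation, 297 after Sws2-ablation and 194 without ablation in kept cells with fewer than 2 UMIs of the 6 genes (called other cells below). The 70 genes of a mitosis list summed to 4630 CPM after Lws2-ablation, 3107 after Sws2-ablation and 3600 without ablation in cycling cells, against 120.2 CPM after Lws2-ablation, 113 after Sws2-ablation and 66.6 without ablation in other cells. Photoreceptor, inner neuron and glial genes were present as well, as described below. fabp7a, a fatty acid binding protein of glia and progenitors, reached 7730 CPM after Lws2-ablation, 5266 after Sws2-ablation and 3976 without ablation in cycling cells.

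Summed over cycling cells, most genes differed little between the ablations. Of 5873 genes with at least 10 CPM in 1 library and 50 UMIs over both, the median log2 ratio (Lws2-ablation over Sws2-ablation, 1 CPM added to each) was 0.25, with a 5th percentile of -0.41 and a 95th of 0.81. At least 2-fold higher after Lws2-ablation were 144 genes, or 2.45% of those tested, and at least 2-fold lower were 95, or 1.62%. Of the 144, 73 passed the filter through the Lws2-ablation library alone, which fixed their direction. Of the 95, 60 passed through the Sws2-ablation library alone, which fixed theirs. Of the 5069 genes at 10 CPM in both libraries, 71 (1.4%) were 2-fold higher and 35 (0.69%) lower. When the libraries were scaled so that the median gene had a ratio of 1, the counts over all 5873 genes turned to 56 higher and 137 lower. Of the genes past 2-fold 29.0% were then higher, against 60.3% without that scaling. Ratios below are therefore also to be read against 0.25. Ribosomal protein genes took 37.8% of cycling cell UMIs after Lws2-ablation, 46.2% after Sws2-ablation and 38.5% without ablation, and in other cells 24.9% after Lws2-ablation, 33.6% after Sws2-ablation and 17.1% without ablation.

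**Figure D2:**
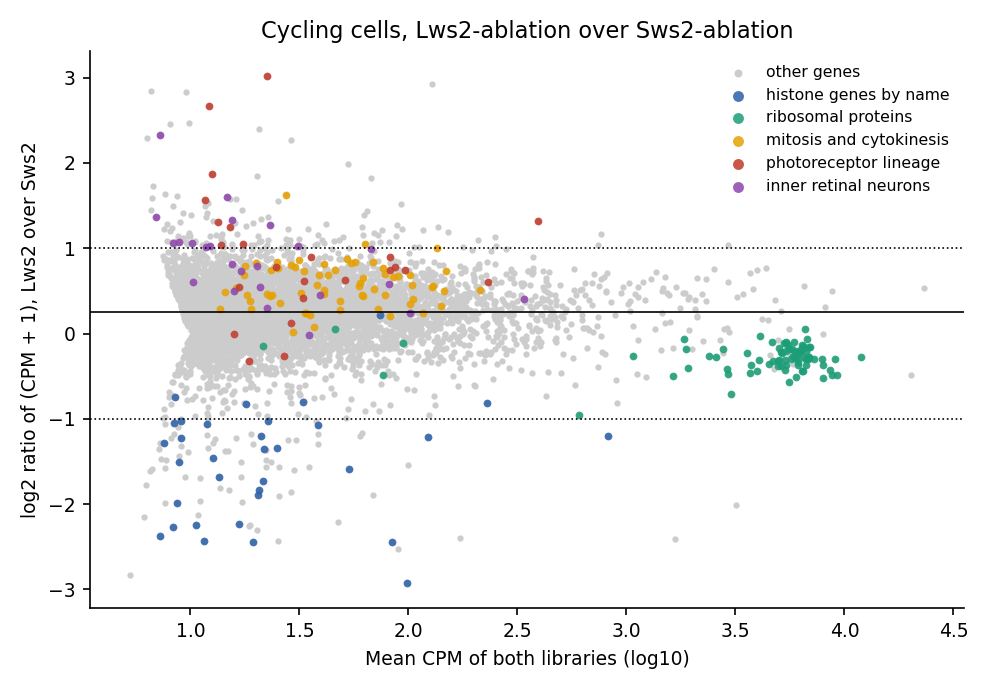
Each point is a gene of cycling cells, with its mean CPM over both libraries (horizontal, log10) and its log2 ratio of Lws2-ablation over Sws2-ablation (vertical). The solid line is the median gene at 0.25 and the dotted lines mark 2-fold; histone genes (blue) lie lowest, ribosomal proteins (green) centre on -0.29, and photoreceptor and inner neuron genes (red, purple) reach the top.

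Mitosis genes stood higher after Lws2-ablation. Of the 66 tested, 59 lay above the median of all genes, 3 were at least 2-fold higher (against 2.45% of all genes) and none was 2-fold lower, with a median log2 ratio of 0.55. All 66 reached 10 CPM in both libraries. The highest ratio was that of knstrn, a kinetochore protein of the spindle, with 1072 UMIs or 41.9 CPM after Lws2-ablation, 209 UMIs or 12.9 CPM after Sws2-ablation and 27.3 CPM without ablation, a ratio of 3.26 (2.81 to 3.798). In other cells it was almost absent, at 0.448 CPM after Lws2-ablation, 0.415 after Sws2-ablation and 0.119 without ablation. ccnb1 (cyclin B1) stood at 85.9 CPM after Lws2-ablation, 40.9 after Sws2-ablation and 51.8 without ablation. cenpf (a centromere protein) was at 181 CPM after Lws2-ablation, 90.1 after Sws2-ablation and 116 without ablation. The most abundant members, nusap1 (a spindle protein, 252 CPM after Lws2-ablation, 176 after Sws2-ablation and 180.4 without ablation) and ccna2 (cyclin A2, 185 CPM after Lws2-ablation, 111 after Sws2-ablation and 142 without ablation), did not reach 2-fold. Under scaling to the median gene, where 0.954% of all genes were 2-fold higher and 2.33% lower, 1 of the 66 stayed past 2-fold.

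M-dominance was set by genes of the same choice, so mitosis values by phase are a description. Within S-dominant cells the median of the list was 0.39 where that of all genes was 0.23, and within M-dominant cells 0.46 where it was 0.36. The log2 ratio of ccnb1 was 0.55 in S-dominant and 0.86 in M-dominant cells, and that of cenpf 0.58 and 0.88. For knstrn it was 1.52 in S-dominant and 1.49 in M-dominant cells. The M-dominant set rested on 300 cells after Lws2-ablation and 131 after Sws2-ablation.

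DNA replication genes differed less. None of the 50 tested was 2-fold higher (2.45% of all genes were) or lower (1.62%), and 37 lay below the median of all genes, with a median log2 ratio of 0.09. rrm1 (the large subunit of ribonucleotide reductase) was the highest, at 405 CPM after Lws2-ablation, 270.2 after Sws2-ablation and 355 without ablation. mcm7 (a subunit of the replicative helicase) was the lowest, at 50.2 CPM after Lws2-ablation, 95.5 after Sws2-ablation and 65.3 without ablation, a log2 ratio of -0.91. The subunits mcm2, mcm3, mcm4 and mcm6 had log2 ratios of -0.08, -0.01, -0.06 and -0.15. dut, which clears dUTP, stood at 567 CPM after Lws2-ablation, 477 after Sws2-ablation and 419 without ablation. Among G1 genes, ccnd1 (cyclin D1) stood at 371 CPM after Lws2-ablation, 506 after Sws2-ablation and 697 without ablation and the kinase inhibitor cdkn1a at 122 CPM after Lws2-ablation, 141 after Sws2-ablation and 264 without ablation. None of 17 tested was past 2-fold, against the same shares of all genes.

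UMIs of genes that package DNA went in opposite directions. The paper names different versions of the library kit without saying which library used which, and how they capture histone RNAs was not tested. Histone genes that the files or RefSeq (assembly GRCz12tu) name as such were lower after Lws2-ablation, a group chosen after its values were seen. Summed over all 46 identifiers, they came to 1126 CPM after Lws2-ablation, 2760 after Sws2-ablation and 429.9 without ablation in cycling cells. Of the 33 tested 28 were at least 2-fold lower (1.62% of all genes were), a count that is no independent support, since the values chose the group. Of these 28, 18 passed the filter through the Sws2-ablation library alone, which fixed their direction (34.9% of all genes that passed so were 2-fold lower). Of the 14 members at 10 CPM in both libraries 10 were 2-fold lower, against 0.69% of all such genes. The most abundant was a copy of zgc:165555 (ENSDARG00000115281, an H4 gene by its RefSeq synonym), with 12729 UMIs or 497 CPM after Lws2-ablation, 18601 UMIs or 1144 CPM after Sws2-ablation and 198 CPM without ablation. Its level after Sws2-ablation was 2.30 times (2.25 to 2.35) that after Lws2-ablation. In other cells that copy was at 15.96 CPM after Lws2-ablation, 50.6 after Sws2-ablation and 3.59 without ablation. hist1h2a6 (an H2A gene) stood at 25.98 CPM after Lws2-ablation, 80.5 after Sws2-ablation and 4.23 without ablation. hist1h2ba (an H2B gene) was at 2.89 CPM after Lws2-ablation, 14.4 after Sws2-ablation and 0.423 without ablation. The lowest ratio was that of another zgc:165555 copy (ENSDARG00000112954), with 566 UMIs or 22.1 CPM after Lws2-ablation and 2829 UMIs or 174 CPM after Sws2-ablation.

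The 1 histone gene of the 33 with a log2 ratio above 0 was hist2h2l, at 79.4 CPM after Lws2-ablation, 68.4 after Sws2-ablation and 104 without ablation, and it was higher in other cells (448 CPM after Lws2-ablation, 289 after Sws2-ablation and 444 without ablation). Many of these identifiers share a symbol, and how reads were split between such copies was not tested. Besides the 28 genes named as histones, 55 of the 95 lower genes had only clone or placeholder symbols, as had 26 of the 144 higher genes. The share of all tested genes with such symbols was not counted. Whether histone genes are among these 55 was not tested. They include zgc:173552 (ENSDARG00000115644, 25.7 CPM after Lws2-ablation, 153 after Sws2-ablation and 3.59 without ablation) and si:ch211-113a14.19 (ENSDARG00000111536, 7.23 CPM after Lws2-ablation, 43.4 after Sws2-ablation and 1.27 without ablation). The latter passed the filter through the Sws2-ablation library alone, which fixed its direction. Of the 95, 68 were at least 5 times higher in cycling than in other cells, against 9 of the 144 higher genes. The 95 include the 28 histone genes, and the share of all tested genes that were so was not counted. Histone variants that are made throughout the cycle lay on the other side, with h3f3a at 3960 CPM after Lws2-ablation, 2874 after Sws2-ablation and 2581 without ablation. h2afvb was at 2106 CPM after Lws2-ablation, 1511 after Sws2-ablation and 1304 without ablation. All 13 high mobility group genes tested lay above the median of all genes. Their median log2 ratio was 0.55 in cycling cells and 0.55 in other cells, where the median of all genes was 0.18. A separate list of histones and variants, which holds h3f3a and h2afvb, had medians of 0.46 in cycling and 0.50 in other cells. hmgn2 had 10269 CPM after Lws2-ablation, 7278 after Sws2-ablation and 6550 without ablation, and hmgb2a 4502 CPM after Lws2-ablation, 3142 after Sws2-ablation and 2830 without ablation. hmgb3a was past 2-fold at 286 CPM after Lws2-ablation, 133 after Sws2-ablation and 154 without ablation. In other cells it had 589 CPM after Lws2-ablation, 217 after Sws2-ablation and 237 without ablation.

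Some of the RNAs with the largest gaps were lower in other cells of the Lws2-ablation library too. zgc:158463, a ribosomal RNA gene in RefSeq, had 32547 UMIs or 1272 CPM in cycling cells after Lws2-ablation, 83235 UMIs or 5119 CPM after Sws2-ablation and 225 CPM without ablation, and in other cells 1869 CPM after Lws2-ablation, 7825 after Sws2-ablation and 372 without ablation. CT027638.1 had 528 CPM after Lws2-ablation, 2812 after Sws2-ablation and 104 without ablation in cycling cells and 739 CPM after Lws2-ablation, 4390 after Sws2-ablation and 269 without ablation in other cells. FO704772.2 had 54.4 CPM after Lws2-ablation, 291 after Sws2-ablation and 2.11 without ablation in cycling cells and 84.4 CPM after Lws2-ablation, 422 after Sws2-ablation and 3.03 without ablation in other cells. Neither has a gene name in the files. exosc3, a subunit of the RNA exosome, has 2 identifiers, of which ENSDARG00000104246 had 6.13 CPM after Lws2-ablation, 34.1 after Sws2-ablation and 23.7 without ablation in cycling cells and the more abundant ENSDARG00000098334 96.9 CPM after Lws2-ablation, 100.4 after Sws2-ablation and 82.4 without ablation, so the split between them is uncertain. UBLCP1, a phosphatase of the proteasome, had 14 UMIs or 0.547 CPM after Lws2-ablation and 163 UMIs or 10.02 CPM after Sws2-ablation. That is a ratio of Sws2-ablation to Lws2-ablation of 18.3 (10.6 to 34.3). Over the alternative settings its log2 ratio ranged from -3.97 to -0.92. UBLCP1 and exosc3 ENSDARG00000104246 passed the filter through the Sws2-ablation library alone, which fixed their direction (34.9% of all genes that passed so were 2-fold lower).

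Ribosomal protein genes shared this direction without passing 2-fold. All 81 tested lay below the median of all genes, with a median log2 ratio of -0.29 in cycling cells and -0.43 in other cells. rpl26 was the lowest, at 413 CPM after Lws2-ablation, 803 after Sws2-ablation and 160.4 without ablation, and rpl29 stood at 2276 CPM after Lws2-ablation, 3730 after Sws2-ablation and 2194 without ablation. Translation factors had a median of 0.06, with eef1a1l1 at 8962 CPM after Lws2-ablation, 7240 after Sws2-ablation and 10159 without ablation. With ribosomal protein and mitochondrial genes left out of the scaling, 107 genes were 2-fold higher and 174 lower, and 38.1% of those past 2-fold were higher.

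**Figure D3:**
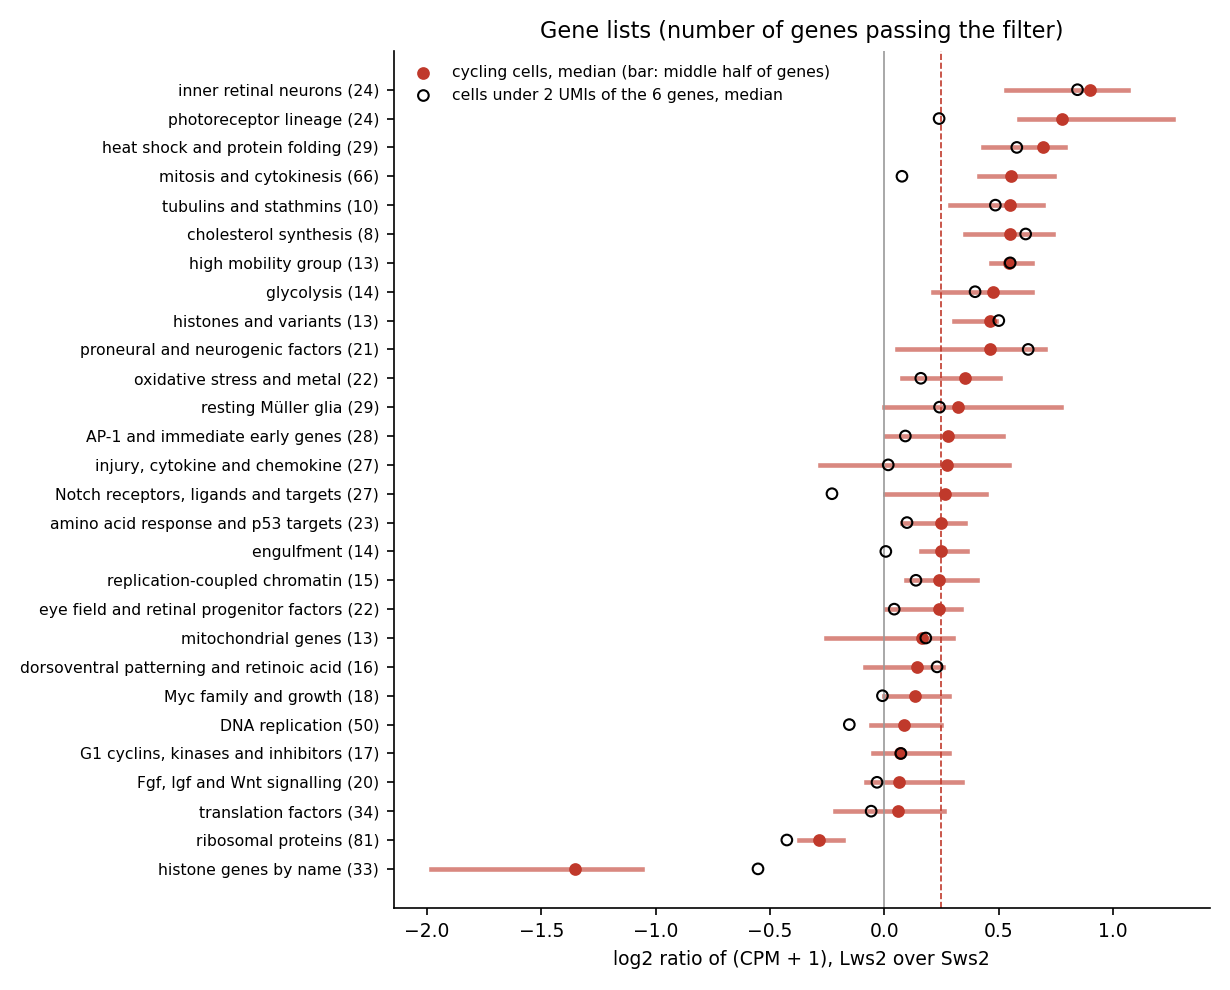
Median log2 ratio (Lws2-ablation over Sws2-ablation) of each gene list in cycling cells (red, with bars from the 25th to the 75th percentile of its genes) and in other cells (open circles); the numbers after the names count the genes that passed the filter, some of them through 1 library only, the dashed line is the median gene of cycling cells at 0.25 and the grey line 0. In cycling cells inner retinal neuron genes stand highest at 0.90 and histone genes lowest at -1.35. Mitosis genes are low in other cells, which were chosen for few cell cycle UMIs, and there the 1 CPM added draws ratios towards 0.

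The 55 photoreceptor genes, those under the filter included, summed to 1852 CPM after Lws2-ablation, 979.6 after Sws2-ablation and 1546 without ablation in cycling cells. In other cells they summed to 5634 CPM after Lws2-ablation, 3047 after Sws2-ablation and 2829 without ablation. Of the 24 that passed the filter 9 were at least 2-fold higher (2.45% of all genes were) and none 2-fold lower. Of these 9, 7 passed through the Lws2-ablation library alone, which fixed their direction (11.6% of all genes that passed so were 2-fold higher). Of the 17 members at 10 CPM in both libraries 2 were 2-fold higher, pde6gb and gngt2a, against 1.4% of all such genes. opn1lw2, the red cone opsin of the ablated cones themselves, had 1037 UMIs or 40.5 CPM in cycling cells after Lws2-ablation, 67 UMIs or 4.12 CPM after Sws2-ablation and 2.75 CPM without ablation, a ratio of 9.83 (7.68 to 12.8). It was also higher in other cells, at 890.5 CPM after Lws2-ablation, 124 after Sws2-ablation and 123 without ablation, and whether its UMIs in cycling cells came from free RNA was not tested. gngt2b (a cone transducin subunit) had 559 UMIs or 21.8 CPM after Lws2-ablation, 42 UMIs or 2.58 CPM after Sws2-ablation and 5.70 CPM without ablation, against 478 CPM after Lws2-ablation, 132 after Sws2-ablation and 85.9 without ablation in other cells. arr3a (cone arrestin) had 20.2 CPM after Lws2-ablation, 4.80 after Sws2-ablation and 12.04 without ablation in cycling cells and 403 CPM after Lws2-ablation, 183 after Sws2-ablation and 238 without ablation in other cells.

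Unlike these cone genes, pde6gb was higher in cycling than in other cells. This inhibitory subunit of the phototransduction phosphodiesterase had 14433 UMIs or 564 CPM in cycling cells after Lws2-ablation, 3665 UMIs or 225 CPM after Sws2-ablation and 462 CPM without ablation, against 344 CPM after Lws2-ablation, 183 after Sws2-ablation and 99.7 without ablation in other cells. Its UMIs sat in few cells, since the 5% of cycling cells with the most held 65.2% of them after Lws2-ablation and 86.7% after Sws2-ablation. For rem1, kidins220a, zfhx3 and tfap2d, named below, the top 5% held from 88.5% (tfap2d) to 100.0% (rem1) after Lws2-ablation and all UMIs after Sws2-ablation, a share that low counts alone can raise. With the same limit, the share was 67.8% for opn1lw2, 84.3% for syt1a, 82.0% for islr2 and 100.0% for isl1 after Lws2-ablation. After Sws2-ablation it was 100.0% for each of these. For icn, named below, it was 73.4% after Lws2-ablation and 87.8% after Sws2-ablation. For the glial genes glula and apoeb it was 59.4% and 63.5% after Lws2-ablation, and 60.6% and 59.2% after Sws2-ablation. For the Notch target her15.1 that share was 15.3% after Lws2-ablation and 18.1% after Sws2-ablation. pde6ha, rcvrn2 (a recoverin), samd7, gngt2a and tulp1a were the other members past 2-fold, with log2 ratios from 1.03 (tulp1a) to 1.57 (pde6ha). The fate factors crx (121 CPM after Lws2-ablation, 72.01 after Sws2-ablation and 104 without ablation) and nr2e3 (104 CPM after Lws2-ablation, 61.6 after Sws2-ablation and 186 without ablation) had log2 ratios of 0.74 and 0.74. opn1sw2, the opsin of the cones ablated in the other line, had 24.5 CPM after Lws2-ablation, 29.5 after Sws2-ablation and 33.2 without ablation, with the top 5% of cells holding all of its UMIs in both ablation libraries.

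In M-dominant cells 15 of 23 photoreceptor genes tested were 2-fold higher where 9.71% of all genes were, and in S-dominant cells 6 of 24 where 1.79% were. The difference between these sets of cells was not tested, and how many of these genes passed the filter through 1 library alone was not counted. In M-dominant cells opn1lw2, gngt2b and rcvrn2 did so, each at 2.65 CPM after Sws2-ablation, which fixed their direction. With the filter at 50 CPM, 1 of 7 was 2-fold higher, where 2.44% of all genes were. Under scaling to the median gene 7 of the 24 stayed 2-fold higher, against 0.954% of all genes. The filter was applied before that scaling. These 7 thus still include genes that passed through the Lws2-ablation library alone, such as opn1lw2 and gngt2b.

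The 63 inner retinal neuron genes, those under the filter included, summed to 1231 CPM after Lws2-ablation, 786 after Sws2-ablation and 1038 without ablation in cycling cells. In other cells they summed to 6565 CPM after Lws2-ablation, 3015 after Sws2-ablation and 3658 without ablation. Of the 24 that passed the filter 11 were at least 2-fold higher (2.45% of all genes were) and none 2-fold lower. Of these 11, 9 passed through the Lws2-ablation library alone, which fixed their direction (11.6% of all genes that passed so were 2-fold higher). Of the 14 members at 10 CPM in both libraries 2 were 2-fold higher, against 1.4% of all such genes. With the filter at 50 CPM, 0 of 4 were 2-fold higher (2.44% of all genes were). syt1a (synaptotagmin, a calcium sensor of transmitter release) had 325 UMIs or 12.7 CPM after Lws2-ablation, 28 UMIs or 1.72 CPM after Sws2-ablation and 9.93 CPM without ablation, and in other cells 161 CPM after Lws2-ablation, 29.9 after Sws2-ablation and 89.5 without ablation. isl1, a LIM homeodomain factor, stood at 10.5 CPM after Lws2-ablation, 3.44 after Sws2-ablation and 12.04 without ablation. islr2 was at 22.6 CPM after Lws2-ablation, 6.76 after Sws2-ablation and 6.34 without ablation. snap25b (a SNARE protein of synaptic vesicle release) stood at 33.02 CPM after Lws2-ablation, 13.1 after Sws2-ablation and 31.3 without ablation. eno2 (neuronal enolase) was at 12.4 CPM after Lws2-ablation, 5.35 after Sws2-ablation and 5.92 without ablation. tfap2d, an AP-2 factor, was higher in cycling than in other cells, with 22.5 CPM after Lws2-ablation, 8.36 after Sws2-ablation and 2.54 without ablation in cycling cells. In other cells it had 9.85 CPM after Lws2-ablation, 3.66 after Sws2-ablation and 2.23 without ablation. Under scaling to the median gene 5 of the 24 stayed 2-fold higher (0.954% of all genes), and with 10 CPM added in place of 1 none did (0.613%). These 5 include genes that passed the filter through the Lws2-ablation library alone, such as syt1a and islr2. With the cells of the highest doublet scores removed, 7 of 18 inner neuron genes and 9 of 24 photoreceptor genes tested were 2-fold higher, against 2.30% of all genes. How many of these passed the filter through 1 library alone was not counted.

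The 41 proneural and neurogenic factors summed to 2986 CPM after Lws2-ablation, 2344 after Sws2-ablation and 3252 without ablation in cycling cells. Of 21 tested 2 were 2-fold higher (2.45% of all genes were) and none lower. Both, myt1b and onecut1, passed the filter through the Lws2-ablation library alone, which fixed their direction (11.6% of all genes that passed so were 2-fold higher). Of the 18 members at 10 CPM in both libraries 0 were 2-fold higher, against 1.4% of all such genes. myt1b (a zinc finger factor of early neurons) had 632 UMIs or 24.7 CPM after Lws2-ablation, 124 UMIs or 7.63 CPM after Sws2-ablation and 9.30 CPM without ablation, a ratio of 3.24 (2.67 to 3.96). onecut1 (a factor of horizontal and ganglion cells) had 14.1 CPM after Lws2-ablation, 5.84 after Sws2-ablation and 14.4 without ablation. neurod1 stood at 296 CPM after Lws2-ablation, 165 after Sws2-ablation and 334 without ablation. olig2, a bHLH factor of progenitors, was at 218 CPM after Lws2-ablation, 126 after Sws2-ablation and 298 without ablation. ascl1a, an early proneural factor of reprogrammed glia, stood at 210.3 CPM after Lws2-ablation, 242 after Sws2-ablation and 269 without ablation and atoh7, the ganglion cell factor, at 49.7 CPM after Lws2-ablation, 56.3 after Sws2-ablation and 37.6 without ablation, neither past 2-fold. gadd45gb.1 was the lowest, at 94.1 CPM after Lws2-ablation, 169 after Sws2-ablation and 120.2 without ablation.

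Notch genes lay near the median of all genes, with a median of 0.26 in cycling cells and -0.23 in other cells. None of 27 was past 2-fold, where 2.45% of all genes were higher and 1.62% lower. The receptor notch3 had 7982 CPM after Lws2-ablation, 8021 after Sws2-ablation and 10772 without ablation in cycling cells, and in other cells 16476 CPM after Lws2-ablation, 25413 after Sws2-ablation and 34184 without ablation. The target her15.1 had 4594 CPM after Lws2-ablation, 2813 after Sws2-ablation and 4208 without ablation in cycling cells, the highest log2 ratio of the list at 0.71, and its paralogue her15.2 had 2967 CPM after Lws2-ablation, 2839 after Sws2-ablation and 3655 without ablation, and how reads were split between them was not tested. her4.3, another target of the same family, was the lowest at 98.2 CPM after Lws2-ablation, 164 after Sws2-ablation and 267 without ablation. Progenitor factors had none of 22 past 2-fold, against the same shares of all genes, and a median of 0.24. vsx1 was their highest (160.1 CPM after Lws2-ablation, 99.8 after Sws2-ablation and 102 without ablation) and foxn4, a factor of horizontal and amacrine cell progenitors, their lowest (159 CPM after Lws2-ablation, 245 after Sws2-ablation and 188 without ablation, and 10.3 CPM after Lws2-ablation, 33.6 after Sws2-ablation and 8.02 without ablation in other cells). Of the Myc family, mych had 83.6 CPM after Lws2-ablation, 164 after Sws2-ablation and 342 without ablation. mycn had 76.4 CPM after Lws2-ablation, 121 after Sws2-ablation and 176 without ablation and myca 146 CPM after Lws2-ablation, 147 after Sws2-ablation and 205 without ablation.

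Genes of a resting glia list were spread in both directions. The 46 summed to 11446 CPM after Lws2-ablation, 8789 after Sws2-ablation and 9358 without ablation in cycling cells. Of these sums fabp7a, a gene of glia and progenitors, alone made up 7730 CPM after Lws2-ablation, 5266 after Sws2-ablation and 3976 without ablation. Of 29 tested 6 were 2-fold higher (2.45% of all genes were) and none lower (1.62%), with a median log2 ratio of 0.32, and 5 of the 6 reached 10 CPM in both libraries. The other, ptgdsb.1, passed the filter through the Lws2-ablation library alone, which fixed its direction. Under scaling to the median gene 3 stayed higher (0.954% of all genes) and 1 was lower (2.33%). ptgdsb.1 (a prostaglandin D synthase) had 48.5 CPM after Lws2-ablation, 9.22 after Sws2-ablation and 10.4 without ablation and its paralogue ptgdsb.2 91.04 CPM after Lws2-ablation, 34.1 after Sws2-ablation and 64.6 without ablation. icn, an S100-type calcium binding protein, had 2180 UMIs or 85.2 CPM after Lws2-ablation, 336 UMIs or 20.7 CPM after Sws2-ablation and 9.51 CPM without ablation, and in other cells 1362 CPM after Lws2-ablation, 609.5 after Sws2-ablation and 122 without ablation. Its level in other cells was thus lowest without ablation, although it is on the resting glia list. glula (glutamine synthetase) had 338 CPM after Lws2-ablation, 165 after Sws2-ablation and 715 without ablation in cycling cells and 4225 CPM after Lws2-ablation, 2911 after Sws2-ablation and 14429 without ablation in other cells. cx43 (a gap junction protein) had 71.3 CPM after Lws2-ablation, 34.99 after Sws2-ablation and 87.04 without ablation. efhd1 had 65.9 CPM after Lws2-ablation, 30.2 after Sws2-ablation and 62.1 without ablation. apoeb, which carries lipids, had 622 CPM after Lws2-ablation, 702 after Sws2-ablation and 1196 without ablation. tjp2b, a tight junction protein, had 133 CPM after Lws2-ablation, 204 after Sws2-ablation and 154 without ablation. The paper places tjp2b in a module that glia express transiently as they become activated.

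**Figure D4:**
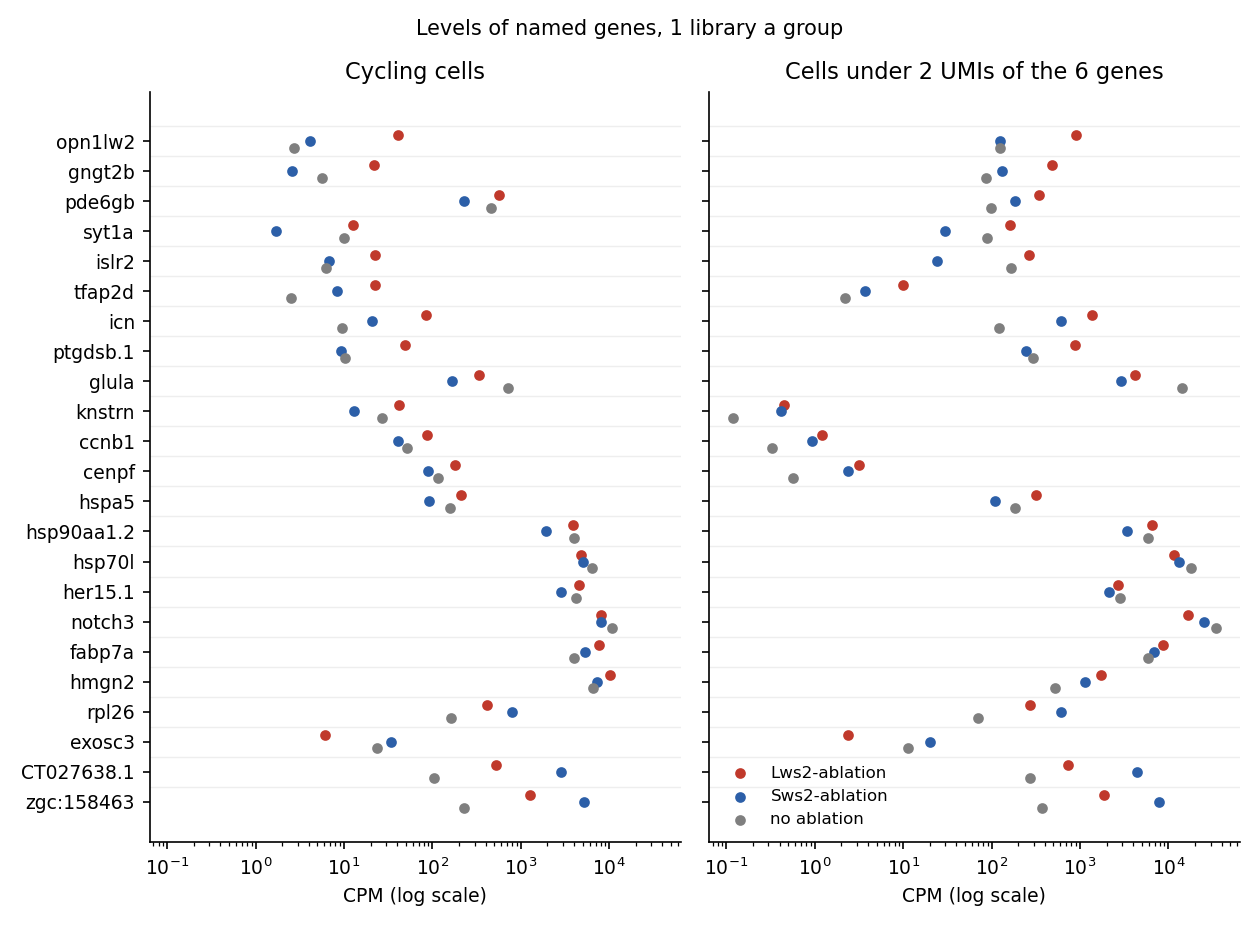
CPM (log scale) of 23 genes in cycling cells (left) and in cells under 2 UMIs of the 6 cell cycle genes (right), with a point for Lws2-ablation (red), Sws2-ablation (blue) and no ablation (grey), 1 library each. knstrn, ccnb1 and cenpf are near absent on the right, glula is far higher there, and zgc:158463 and CT027638.1 are highest in the Sws2-ablation library on both sides (exosc3 is the identifier ENSDARG00000104246).

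The glial values moved with EGFP, which the glial gfap promoter drives, so choosing cells on it favours glial RNA in advance. EGFP itself had 5089 UMIs or 199 CPM in cycling cells after Lws2-ablation, 34 UMIs or 2.09 CPM after Sws2-ablation and 162 CPM without ablation, and in other cells 1037 CPM after Lws2-ablation, 1.31 after Sws2-ablation and 1229 without ablation. RFP differed less, at 1289 CPM after Lws2-ablation, 1523 after Sws2-ablation and 846 without ablation. In the 843 Lws2-ablation cycling cells with EGFP, glula stood at 539.6 CPM, apoeb at 1036 and icn at 143, and in the 953 without EGFP glula stood at 149 CPM, apoeb at 234 and icn at 30.9. The cycling cells of Sws2-ablation were left unsplit, so glial counts against them describe the choice of cells by EGFP. Against the cycling cells of Sws2-ablation, 12 of 31 glial genes tested were 2-fold higher and 1 lower in the cells with EGFP, and 2 of 28 higher and 5 lower in the cells without. Of all genes, 4.86% were higher and 1.75% lower with EGFP, and 2.05% were higher and 2.05% lower without. The log2 ratio of glula turned to -0.15 in the cells without EGFP. Of the injury and cytokine genes, 5 of 28 tested were 2-fold higher and 1 lower in cells with EGFP, and 0 of 26 higher and 9 lower in cells without, against the same shares of all genes. Over all cycling cells their median was 0.27, and timp4.3 (a metalloprotease inhibitor) was the 1 member of 27 tested past 2-fold (1.62% of all genes were 2-fold lower). It stood at 1.60 CPM after Lws2-ablation, 10.6 after Sws2-ablation and 0.423 without ablation. It passed the filter through the Sws2-ablation library alone, which fixed its direction. Of the 22 members at 10 CPM in both libraries 0 were past 2-fold, where 1.4% of all such genes were higher and 0.69% lower.

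Photoreceptor genes were 2-fold higher for 7 of 24 tested in cells with EGFP and 12 of 24 without, inner neuron genes for 17 of 27 with EGFP and 5 of 20 without, and mitosis genes for 1 of 66 with EGFP and 5 of 66 without. Of all genes 4.86% were 2-fold higher with EGFP and 2.05% without, so the mitosis count with EGFP lay below the background. For none of the counts by EGFP was it counted how many genes passed the filter through 1 library alone. knstrn stood at 38.1 CPM in cells with EGFP and 45.5 in cells without, and pde6gb at 562 CPM in cells with EGFP and 565 in cells without. M-dominant cells made up 13.2% of cells with EGFP and 19.8% of cells without. Because EGFP was almost absent from the library labelled Sws2-ablation, its cycling cells could not be split in the same way.

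Chaperone genes were mostly higher after Lws2-ablation. Of 29 tested 24 lay above the median of all genes and 5 were 2-fold higher (2.45% of all genes were), with medians of 0.70 in cycling cells and 0.58 in other cells. hspa5 (BiP, of the endoplasmic reticulum) stood at 213 CPM after Lws2-ablation, 92.4 after Sws2-ablation and 159 without ablation. hsp90b1 was at 96.4 CPM after Lws2-ablation, 42.1 after Sws2-ablation and 54.3 without ablation, and calr at 55.8 CPM after Lws2-ablation, 26.3 after Sws2-ablation and 36.1 without ablation. dnaja1, a co-chaperone with the highest fold of the 5 at 2.34, stood at 12.8 CPM after Lws2-ablation, 5.47 after Sws2-ablation and 13.5 without ablation. It passed the filter through the Lws2-ablation library alone, which fixed its direction. Of the 27 members at 10 CPM in both libraries 4 were 2-fold higher, against 1.4% of all such genes. hsp90aa1.2, a cytosolic Hsp90, was at 3928 CPM after Lws2-ablation, 1906 after Sws2-ablation and 4036 without ablation. hsp70l, a heat-induced chaperone, stood at 4841 CPM after Lws2-ablation, 5092 after Sws2-ablation and 6345 without ablation. Under scaling to the median gene none of the 29 stayed past 2-fold, while the median of the list was 0.44.

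Immediate early genes had 3 of 28 tested past 2-fold, all higher (2.45% of all genes were), while their median of 0.28 was close to the 0.25 of all genes. The zinc finger factors egr2a and egr4 were among them, egr2a at 126 CPM after Lws2-ablation, 51.6 after Sws2-ablation and 103 without ablation and egr4 at 44.5 CPM after Lws2-ablation, 21.5 after Sws2-ablation and 26.2 without ablation. dusp5 (a phosphatase of Erk) stood at 39.5 CPM after Lws2-ablation, 17.96 after Sws2-ablation and 21.13 without ablation. The AP-1 members jun (1574 CPM after Lws2-ablation, 1328 after Sws2-ablation and 1867 without ablation) and fosab (2165 CPM after Lws2-ablation, 1551 after Sws2-ablation and 3074 without ablation) did not reach 2-fold. gstp1 (a glutathione transferase) was higher at 92.3 CPM after Lws2-ablation, 43.8 after Sws2-ablation and 49.01 without ablation. txnipa (the thioredoxin-interacting protein) was lower at 36.1 CPM after Lws2-ablation, 84.3 after Sws2-ablation and 81.3 without ablation. stmn1b, a stathmin, stood at 343 CPM after Lws2-ablation, 157 after Sws2-ablation and 231 without ablation. The log2 ratios of gstp1, txnipa and stmn1b were 1.06, -1.20 and 1.13 in cycling cells and 0.65, -1.57 and 1.95 in other cells. Glycolysis and cholesterol synthesis genes had medians of 0.48 and 0.55 with none past 2-fold, and patterning genes and Fgf, Igf and Wnt genes had medians of 0.14 and 0.06 with none past 2-fold. Of all genes 2.45% were 2-fold higher and 1.62% lower.

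Among the 12 genes with the highest ratios, several belonged to no list. BX548028.1, which has no gene name in the files, had 5806 UMIs or 227 CPM in cycling cells after Lws2-ablation, 472 UMIs or 29.03 CPM after Sws2-ablation and 76.9 CPM without ablation, a ratio of 7.82 (7.11 to 8.60), and stood lower in other cells at 38.7 CPM after Lws2-ablation, 14.03 after Sws2-ablation and 24.9 without ablation. rem1 (a small GTPase) had 317 UMIs after Lws2-ablation and 14 after Sws2-ablation. kidins220a (a scaffold of neurotrophin receptors) had 446 UMIs after Lws2-ablation and 38 after Sws2-ablation, and pcp4a (a calmodulin regulator) 367 UMIs after Lws2-ablation and 29 after Sws2-ablation. zfhx3 (a zinc finger homeodomain factor) had 285 UMIs after Lws2-ablation and 24 after Sws2-ablation. si:ch211-56a11.2, named ppp1r17 in RefSeq, stood at 35.2 CPM after Lws2-ablation, 5.84 after Sws2-ablation and 5.28 without ablation. These 5 had log2 ratios in other cells from 1.57 (si:ch211-56a11.2) to 4.87 (kidins220a). In cycling cells all 5 passed the filter through the Lws2-ablation library alone, which fixed their direction (11.6% of all genes that passed so were 2-fold higher). Some abundant genes lay at about 2-fold. Of these rsrp1 had 1055 CPM after Lws2-ablation, 469.8 after Sws2-ablation and 986 without ablation, and ckbb, a brain creatine kinase, 997 CPM after Lws2-ablation, 485 after Sws2-ablation and 633 without ablation. hdac1, a histone deacetylase, had 372 CPM after Lws2-ablation, 187 after Sws2-ablation and 322 without ablation, and ccng1, a p53 target, 317 CPM after Lws2-ablation, 162 after Sws2-ablation and 359 without ablation. The log2 ratios of rsrp1, ckbb, hdac1 and ccng1 were 1.17, 1.04, 0.99 and 0.97 in cycling cells. In other cells they were 1.00, 0.64, 1.07 and 0.73. Other abundant genes were lower without reaching 2-fold. Of these eif4ebp3l, which binds the cap-binding factor eIF4E, had 460.0 CPM after Lws2-ablation, 698 after Sws2-ablation and 804 without ablation. dap1b (ENSDARG00000086842) had 321 CPM after Lws2-ablation, 534 after Sws2-ablation and 495 without ablation, and zgc:153409 657 CPM after Lws2-ablation, 1158 after Sws2-ablation and 324 without ablation. The log2 ratios of eif4ebp3l, dap1b and zgc:153409 were -0.60, -0.73 and -0.82 in cycling cells and -0.49, -0.84 and -1.27 in other cells.

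Markers of cells outside the neural retina were scarce in cycling cells. The 23 microglia genes summed to 21.6 CPM after Lws2-ablation, 2.83 after Sws2-ablation and 3.17 without ablation, of which apoc1 (an apolipoprotein) made up 17.5 CPM after Lws2-ablation, 1.60 after Sws2-ablation and 2.54 without ablation, and 5 of the 23 after Lws2-ablation and 13 after Sws2-ablation were at 0. apoc1 stood at 3.47 CPM in Lws2-ablation cells with EGFP and 30.8 in cells without. The 24 lens genes summed to 63.8 CPM after Lws2-ablation, 6.27 after Sws2-ablation and 72.9 without ablation in cycling cells and to 2251 CPM after Lws2-ablation, 13.9 after Sws2-ablation and 6631 without ablation in other cells, with 1 of the 24 after Lws2-ablation and 13 after Sws2-ablation at 0 in cycling cells. Lens RNA was thus almost absent from the Sws2-ablation library. cryba4, a lens crystallin, had 10.2 CPM after Lws2-ablation, 3.07 after Sws2-ablation and 8.24 without ablation. The 18 blood genes summed to 22.6 CPM after Lws2-ablation, 11.3 after Sws2-ablation and 31.7 without ablation. The 13 pigment cell genes summed to 5.98 CPM after Lws2-ablation, 5.90 after Sws2-ablation and 6.13 without ablation, and the 11 oligodendrocyte genes to 8.95 CPM after Lws2-ablation, 6.95 after Sws2-ablation and 11.2 without ablation. The 19 epidermal genes came to 36.5 CPM after Lws2-ablation, 41.3 after Sws2-ablation and 10.4 without ablation. The 15 vessel genes summed to 179 CPM after Lws2-ablation, 173 after Sws2-ablation and 206 without ablation, of which cldn5b made up 173 CPM after Lws2-ablation, 167 after Sws2-ablation and 194 without ablation, and the 21 MHC and family-variable genes to 31.5 CPM after Lws2-ablation, 28.96 after Sws2-ablation and 29.4 without ablation. Their part in the other ratios was not tested.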

How the data were processed

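Per the matrix headers, the authors made the deposited UMI counts (27773 features by barcode) with Cell Ranger 3.0.2, whereas the submitters' processing notes give 2.1.1. The genome was GRCz11 with EGFP and RFP added. Kept cells had at least 200 genes, at most 4500 (Lws2-ablation), 4000 (Sws2-ablation) or 3500 (no ablation), and at most 35, 30 or 20% mitochondrial UMIs. UMIs were summed over cycling cells, and the 6 choosing genes were left out of genes and totals. Intervals are Clopper-Pearson for shares and exact conditional Poisson for ratios (scipy 1.17.1). With 1 library a group no p-value was computed. Doublets were kept in the values reported. The automatic threshold of Scrublet (scanpy 1.11.5) marked 0 cells in each ablation library, so in an alternative the 870 and 493 highest scores, 0.8% per 1000 kept cells, were removed. The calculation was tested on simulated counts.

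The cells and the lists were chosen with earlier results of these data known. The rule for named genes took the 12 highest and 12 lowest ratios, the 8 highest and 8 lowest among genes of at least 300 CPM, list members past 2-fold (at most 6 per list and direction) and the 2 most abundant members of each list. Not all of these are printed. Further genes named outside the rule, such as a list's extremes, close copies and known regulators, were chosen after their values were seen. Alternatives covered the threshold, depth, doublets, filters, pseudocount, scaling, phase and EGFP.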

Additional observations from a re-analysis of the deposited data

How the results depend on the processing

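Cycling cells made up 18.1% of kept cells after Lws2-ablation and 14.9% after Sws2-ablation at a threshold of 6 UMIs, 15.8% and 11.7% at 12, and 18.2% and 12.4% when chosen after thinning to 3000 UMIs. Against 144 genes 2-fold higher and 95 lower after Lws2-ablation, cells chosen after thinning gave 95 higher and 121 lower, a pseudocount of 10 CPM 36 and 41, a filter at 50 CPM 43 and 19 (of 1763 tested), no filter 379 and 146 (of 21113), median-ratio scaling 56 and 137, and scaling without ribosomal protein and mitochondrial genes 107 and 174. Equal weights for S-dominant and M-dominant cells gave 227 higher and 117 lower, M-dominant cells alone 585 and 130, and Lws2-ablation cells with EGFP alone 295 and 106. The cause of these shifts was not tested. Each other alternative gave counts within 1.5 times of those reported. The log2 ratio of glula turned to -0.15 when only Lws2-ablation cells without EGFP entered. Counting both rrm2 copies gave 144 and 95, and leaving out the genes named as histones 144 and 67, both chosen after seeing the data. No paired analysis was possible because each group had 1 library, and for the same reason no replicate could be left out. Genes near 10 CPM in 1 library can rest on few UMIs in the other, such as the 14 of UBLCP1 after Lws2-ablation. Many pass the filter in 1 library only.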
